A study of Mus musculus with 2 samples.

Results

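The genes described here encode the proteins of the cytosolic ribosome, measured in osteoblasts grown from the skull vault (calvaria) of newborn mice. Members were taken by symbol alone: every probe set whose annotation names exactly 1 gene, with a current symbol that starts with Rpl, Rps or Rplp and a number, except the Rps6k kinases. This gave 99 probe sets of 48 genes, out of 20380 single-gene probe sets of 12393 genes on the array. The members comprise 20 large-subunit genes, 19 small-subunit genes, 2 genes of the ribosomal stalk and 7 others. The 7 others are 6 paralogs (Rpl3l, Rpl7l1, Rpl22l1, Rpl39l, Rps4l and Rps27l) and the pseudogene Rps15a-ps6.

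The study hybridised 1 Affymetrix expression array per genotype, each with RNA of 3 combined cultures. The group labelled Col1-Dlk1 comes from C57Bl/6 mice with a transgene that overexpresses Dlk1, and its Dlk1-positive cells were enriched by flow sorting, per the labels. The control group, labelled wild type, comes from non-transgenic littermates of the same strain. All mice were 4 to 5 days old, and the labels name no agent given to either group. Which part of a Col1 promoter drives the transgene, and whether the control cells were sorted, is left unstated in the sources used here.

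A cytosolic ribosome is built from a large and a small subunit, each a scaffold of ribosomal RNA that carries many small, basic proteins. Most of these proteins are encoded by a single gene that is active in every growing cell, and many of their messenger RNAs begin with a terminal oligopyrimidine tract, a run of C and T bases through which mTOR and Larp1 control translation. Osteoblasts secrete large amounts of collagen and other matrix proteins, so ribosome supply is part of their normal work. Ribosomal protein genes also left many processed pseudogenes in the genome, and a probe set can therefore read several near-identical copies.

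Short RefSeq promoter windows (build GRCm38.p6) of 5 members are printed here because the results turn on these genes. Rps27 and Rps25 are the only members past a 2-fold difference, Rps27l is a paralog of Rps27 that lay in the opposite direction, and Rpl35 and Rps10 stand for the typical bright member. Each window holds 60 bases before the annotated start and 15 bases from the start onwards, and capitals mark the longest run of at least 8 C or T bases on the gene's strand that touches the 15 bases on either side of the start, or the first of them where runs are equally long.

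Rps27, chr3:90213634-90213708, minus strand: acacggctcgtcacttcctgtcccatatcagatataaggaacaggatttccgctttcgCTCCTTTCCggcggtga
Rps25, chr9:44407654-44407728, plus strand: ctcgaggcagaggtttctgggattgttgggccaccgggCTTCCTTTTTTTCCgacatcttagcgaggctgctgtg
Rpl35, chr2:39005117-39005191, minus strand: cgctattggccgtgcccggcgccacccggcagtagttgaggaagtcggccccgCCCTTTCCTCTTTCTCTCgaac
Rps10, chr17:27635230-27635304, minus strand: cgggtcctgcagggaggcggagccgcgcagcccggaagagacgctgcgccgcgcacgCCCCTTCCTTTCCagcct
Rps27l, first start, chr9:66946026-66946100, plus strand: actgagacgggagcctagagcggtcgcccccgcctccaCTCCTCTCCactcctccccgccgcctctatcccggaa
Rps27l, second start, chr9:66946353-66946427, plus strand: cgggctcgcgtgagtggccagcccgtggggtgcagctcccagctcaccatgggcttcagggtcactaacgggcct

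The marked run crosses the annotated start in Rps27, Rpl35 and Rps10. In Rps25 and at the first start of Rps27l it lies wholly before the start, and Rps27l has another run of equal length, left in lower case, between the marked one and that start. The second start of Rps27l has none. Of the 48 members, 41 matched the promoter table, with 49 annotated starts. A run of at least 8 C or T bases near the start was present in 21 of these 49 windows (42.9%), against 17.6% of all 32851 windows in the table. In the whole window of 300 bases, the ETS core CCGGAA occurred on either strand in 27 of 49 (55.1%), against 14.9% of all windows, and the TATA motif TATAAA in 6 of 49 (12.2%), against 13.6%. The ETS core can overlap the pyrimidine run where they meet. These matches describe letters in annotated windows and are not measured sites.

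Before any ribosomal gene is compared, the labels were checked on Dlk1. The only probe set that names Dlk1 read 26.5 where the label is Col1-Dlk1 and 306 where it is wild type, so the transgene's own gene went against the label. Directions below are therefore between the arrays as labelled, and exchanging the labels would reverse them. Other differences between these arrays are large: on the array labelled Col1-Dlk1, all 22 macrophage markers of a fixed list were more than 2-fold brighter, with summed intensities of 28515 against 430.1 and no marker at 0. Of 28 measured cell cycle genes, 24 passed the level threshold defined below and were at least 2-fold lower there, and Ccnd1 was at least 2-fold higher (1673 against 746), with summed intensities of 4607 against 12337. Of 12 measured osteoblast markers, 5 passed that threshold, while Alpl, Ibsp, Dmp1 and Sp7 were dim on both arrays. Among the 5, Col1a1 and Col1a2, which encode type I collagen, and Sparc differed by less than 2-fold. Msx2 was at least 2-fold higher (474 against 29.5) and Omd at least 2-fold lower (34.9 against 102). Neither the part of the macrophage RNA nor that of the cell cycle difference in the ribosomal results was tested. In such bulk RNA, fewer cells of a type and less RNA per cell cannot be told apart.

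Intensities were compared as log2(intensity + 10.96), where 10.96 is the 25th percentile of all values, and a difference below 0 means a lower reading under the Col1-Dlk1 label than under the wild-type label. A probe set or gene is called dim when it reads below 42.8, the median of all values, on both arrays. It is called higher or lower when it is not dim and the difference reaches 2-fold. Neither genotype has a replicate array, so no value has an error or a test. A call states only the size of a difference between these arrays and does not compare the genotypes.

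Cytosolic ribosomal protein genes read slightly lower on the array labelled Col1-Dlk1, nearly as a block. Of the 48 genes, 45 were not dim, and 41 of those 45 were below the wild-type reading, against 48.8% of all 6795 genes past the level threshold. Their median difference was -0.43 log2 units, a ratio of 1.35, beside 0.02 for all genes past the threshold. The quartiles of the members lay at -0.57 and -0.21, and those of all genes at -0.40 and 0.44. Few differences were large: 2 members were at least 2-fold lower, where the share over all genes is 7.11%, and none was at least 2-fold higher, where the share is 9.39%. At 1.5-fold, 11 of the 45 members were lower, a larger share than the 17.0% of all genes. Only 1 was higher, where the share over all genes is 19.2%. The members thus stood out by a common small difference rather than by large ones. The counts past 2-fold are too small to set the members apart from all genes.

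The size of the common difference depends on the scaling. Under quantile normalization the median was -0.27, with 38 of 45 genes lower, and under loess it was -0.24, with 37 of 45 lower. As deposited, the 27 members with a mean level of at least 1000 had a median of -0.47, while the 288 other genes at or above that level had a median of 0.06, with 127 of them lower and 161 higher. These groups were not matched in level. The median reading of these members was 4286 under the Col1-Dlk1 label and 6092 under the wild-type label, and that of the other genes 1640 and 1540. The comparison therefore cannot separate membership from a scaling effect that changes with level.

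**Figure D1:**
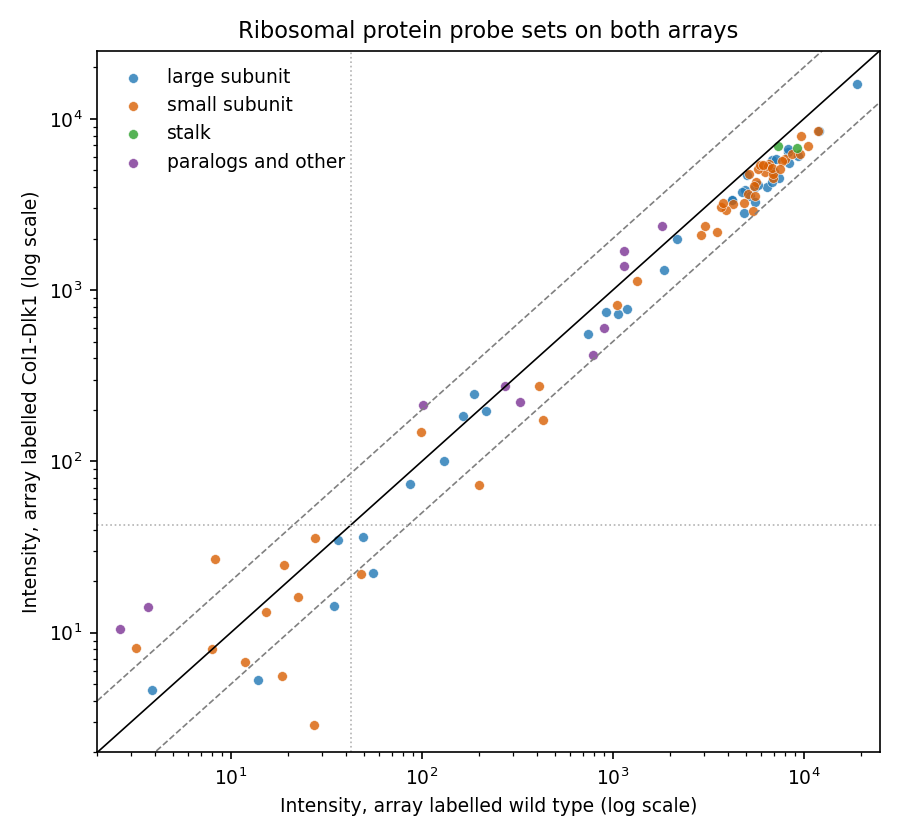
Intensity of the 99 ribosomal protein probe sets on the array labelled wild type (x axis, log scale) and on the array labelled Col1-Dlk1 (y axis, log scale), coloured by role. The solid line marks equal intensity, dashed lines a plain ratio of 2, and dotted lines the level threshold of 42.8; most bright points lie just below the solid line, and the scatter widens among dim ones.

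At the level of probe sets, 16 of the 99 (16.2%) were dim, against 43.7% of all single-gene probe sets. Taken singly, 19 read below 42.8 under the Col1-Dlk1 label and 16 under the wild-type label. Of the 83 that were not dim, 75 read lower under the Col1-Dlk1 label, against 49.7% of all such probe sets. Only 2 were at least 2-fold lower and none at least 2-fold higher, beside 8.18% and 9.45% of all. The dim members had no common direction: 9 were lower and 7 higher, with a median of -0.03 and a range from -1.46 to 0.97.

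Most dim probe sets belong to genes that also have probe sets past the threshold. Dim probe sets occurred in 11 genes, of which 9 also had a probe set past the threshold. Rps18, a protein of the small-subunit head, is the plainest case: 3 of its probe sets read 5846, 3567 and 6203 under the Col1-Dlk1 label against 8003, 5575 and 8704 under the other, while the other 3 stayed between 6.73 and 13.1 against 3.19 and 15.3. The bright probe sets of Rps18 all read lower, by -0.45 to -0.64, and the dim ones went in both directions. Of the 2 genes with dim probe sets only, Rpl3l (14.2 against 3.70), the skeletal muscle paralog of Rpl3, and the pseudogene Rps15a-ps6 (10.5 against 2.62) could not be called at any fold. Averaging all probe sets also left Rpl27a dim as a gene, since 1 of its 2 probe sets read 4.65 against 3.89, while the other read 22.4 against 55.5 (-0.99).

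Affymetrix marks by suffix whether a probe set's probes are shared between transcripts. Of the member probe sets, 40 end in _x_at and 2 in _s_at, the suffixes that mark shared probes. Another 28 end in _a_at, meant for transcripts of 1 gene, and 29 in plain _at. Of the 16 dim probe sets, 12 were plain _at. Past the level threshold the medians were -0.50 for 17 plain _at, -0.42 for 27 _a_at and -0.41 for 37 _x_at probe sets, and the 2 _s_at probe sets read -0.36 and 0.39. For all single-gene probe sets the medians were 0.03, -0.01 and -0.13 in the same order of the first 3 classes. The lower reading of the members was thus present in the plain _at, _a_at and _x_at classes. Some ribosomal probe sets that end in _at or _a_at name several genes, so these classes do not separate shared from unshared probes.

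The gene averages of all 19 large-subunit genes past the threshold were below 0, with a median of -0.37 and none past 2-fold. For Rpl22 that average was -0.05 over probe sets that disagree, and it turned to 0.01 under loess. The largest difference was that of Rpl10a, a protein near the exit site for transfer RNA, which read 2826 under the Col1-Dlk1 label and 4849 under the wild-type label (-0.78). Rpl6 read 4286 against 6793 (-0.66). Rpl4, whose long loop lines the exit tunnel of the growing peptide, read 6088 against 9337 (-0.62). These genes had 1 probe set each, so no other reading on the array bears on them.

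Large-subunit genes with several probe sets gave a similar picture. Rpl27 was read 3 times, at 3977, 774 and 722 against 6406, 1189 and 1062, and the differences of -0.69, -0.61 and -0.55 lay close together. Rpl35 sits at the tunnel exit where ribosomes dock to the endoplasmic reticulum. It had 5 probe sets past the threshold, between 3368 and 6408 against 4210 and 8260. All 5 were lower, by -0.32 to -0.57, and a further one was dim, at 5.26 against 13.8 (-0.61). Rpl13a was lower on all 4 of its probe sets, by a smaller -0.10 to -0.33.

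Rpl7 was lower on each of its 3 probe sets, with 3381, 3292 and 557 against 4223, 5581 and 746, but the differences ranged from -0.32 to -0.76. Rpl41, the shortest ribosomal protein, had 1 probe set at 16037 against 19077 (-0.25) and another at 4544 against 7424 (-0.71). Its other 2 probe sets were dim. The size of the difference of a gene thus varied with the probe set, more than its direction did.

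Several large-subunit proteins with roles beyond the ribosome lay inside this range. Rpl11, which binds Mdm2 when ribosome assembly is disturbed, read 3833 against 4922 (-0.36). Rpl38, known from mice with altered skeletal patterning, read 6651 against 8230 (-0.31). Rpl8 read 4135 against 5749 (-0.47), Rpl7a 5491 against 8395 (-0.61) and Rpl19 5725 against 6819 (-0.25). Of the remaining genes, Rpl12 read 36.0 against 49.5 (-0.37), Rpl14 73.9 against 86.9 (-0.21), Rpl39 101 against 131 (-0.34) and Rpl37 197 against 218 (-0.14). Probe sets that name these genes together with other genes were also lower, but by other sizes. All 5 for Rpl14 were lower, by -0.55 to -1.30, and those for Rpl12 had a median of -0.73. For Rpl37 they ranged from -0.17 to -0.58, and the one for Rpl39 read 5641 against 6027 (-0.095).

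The stalk is the flexible arm of the large subunit that recruits elongation factors. Rplp0, its base, read 6807 against 9173 (-0.43), and Rplp2, one of the acidic proteins that form its tip, read 6926 against 7340 (-0.08). Rplp2 was the stalk gene whose direction turned with the scaling, to 0.16 under quantile normalization and 0.14 under loess. Rplp1, the partner of Rplp2, had only a probe set that also names a pseudogene, at 7380 against 9364 (-0.34).

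Small-subunit genes had a median of -0.47, with 17 of 19 lower, and held both members past 2-fold. Rps27, a zinc-finger protein of the small subunit, read 73.3 under the Col1-Dlk1 label and 199 under the wild-type label (-1.32). Rps25, which viral internal ribosome entry sites need for initiation, read 175 against 429 (-1.24). These readings come from 1 plain _at probe set per gene. The probe set shared by Rps27 and its copy Rps27rt read 3597 against 4490, a difference of -0.32, and the one that names Rps25 with 2 predicted genes read 2262 against 3231, a difference of -0.51. The 2-fold calls of Rps27 and Rps25 thus rest on a single probe set each, while the shared probe sets of these genes lay in the common range.

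Among the other small-subunit genes, Rps15 was lower by -0.69 on average, with 3639 and 2912 against 5099 and 5442 on its 2 probe sets. Rps7 read 5133 and 2200 against 7555 and 3514 (-0.61 on average). Rps14, whose loss defines a myelodysplastic syndrome with anaemia in people, was lower on both of its probe sets, by -0.54 and -0.61. Rps19, the gene most often mutated in Diamond-Blackfan anaemia, read 2931 against 3918 (-0.42). All of these single-gene probe sets lay in the common direction, and none reached 2-fold.

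Rps10, a protein of the small-subunit head, had 5 probe sets past the threshold, and each of them was lower, by -0.26 to -0.55. Its sixth was dim and read 2.88 against 27.2 (-1.46), which pulls the gene average to -0.57, while those past the threshold average -0.40. Rps24 shows the opposite effect. Its 4 probe sets past the threshold were lower by -0.24 to -0.59, with a mean of -0.43, but 1 dim probe set at 26.8 against 8.27 (0.97) brings the gene average to -0.17. A gene average over all probe sets therefore misplaces some members, and with only the probe sets past the threshold 43 of 46 genes were lower, with a median again of -0.43. That alternative was chosen after seeing the data.

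Further small-subunit genes were also lower, none of them past 2-fold. Rps2 read 8523 against 11898 (-0.48) and Rps26 read 5656 against 7650 (-0.43). Rps3, which lies at the entry of the messenger RNA channel, read 5290 against 6525 (-0.30), and Rps3a1 read 5358 against 6092 (-0.19). Rps29 was lower on 3 of 3 probe sets, by -0.12 to -0.28. Rps28 was lower on 3 of 3, with -0.62 and -0.62 on a pair of probe sets and -0.17 on the third. Rps9 gave -0.84, -0.36 and -0.35, the first from a probe set that passed the threshold under the wild-type label alone, at 48.0. Rps4x, encoded on the X chromosome, read 5155 against 6792 (-0.40) on its bright probe set.

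The 2 small-subunit genes not below the wild-type reading were Rps6 and Rps20. Rps6, the substrate of the S6 kinases downstream of mTOR, read 149 against 99.2 on its only single-gene probe set past the threshold (0.54). Probe sets that name Rps6 together with the pseudogene Rps6-ps4 went the other way: all 8 that were not dim were lower, by -0.07 to -0.68, among them 1 at 12268 against 17245 (-0.49). The higher reading of Rps6 is thus not shared by the probe sets that Rps6 has in common with its pseudogene. Rps20 averaged 0.01, with 2 bright probe sets at -0.23 and -0.27 and 2 dim ones at 0.28 and 0.25.

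**Figure D2:**
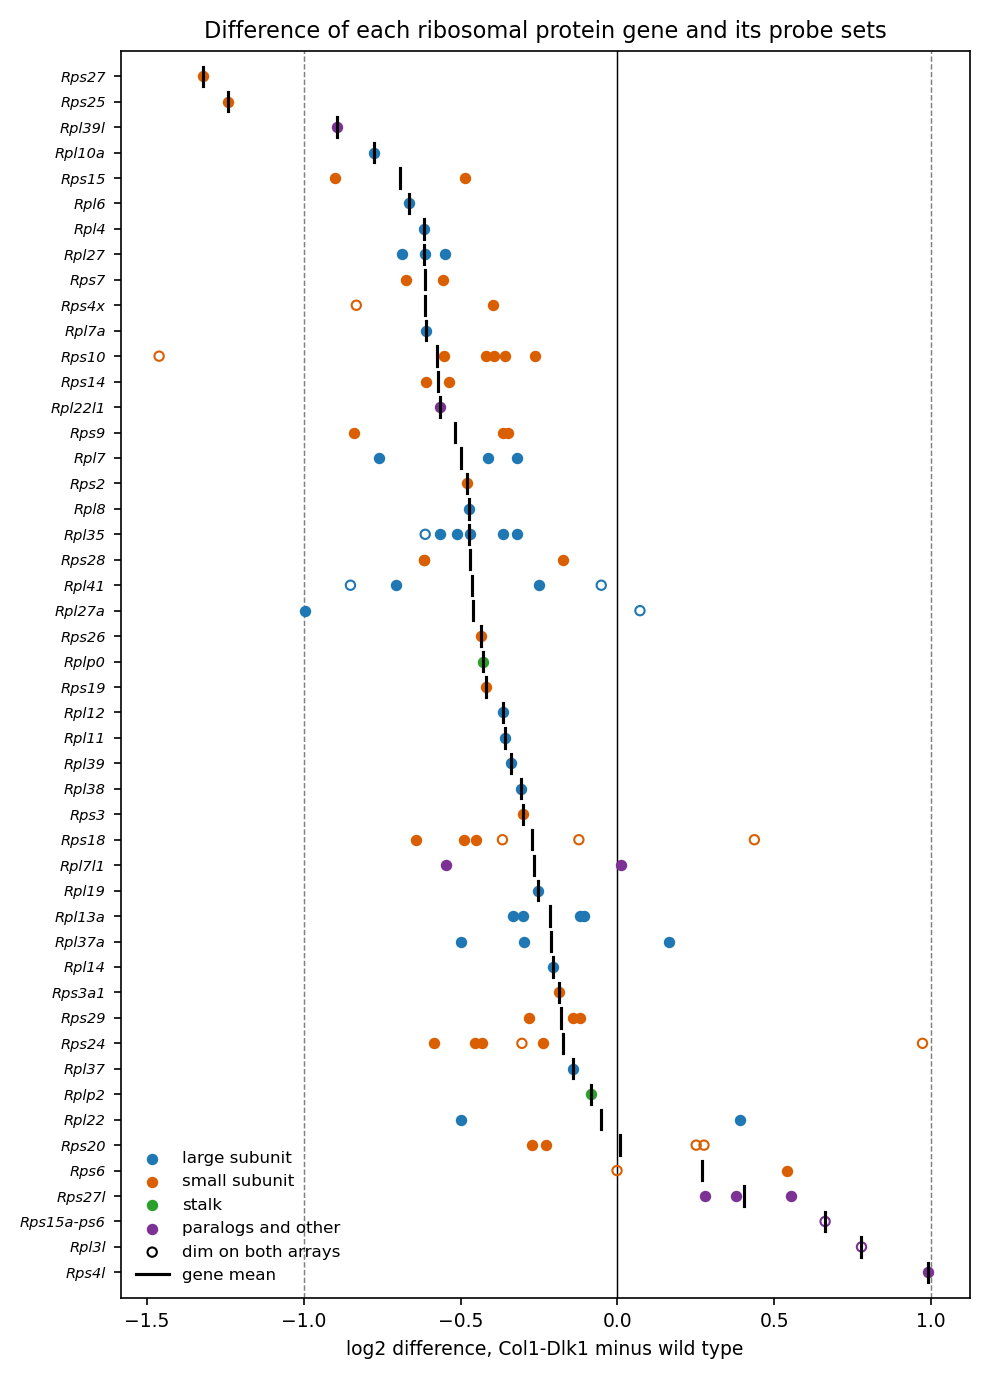
Log2 difference (x axis, Col1-Dlk1 minus wild type) of each of the 48 member genes (y axis, sorted), with 1 point per probe set, open where dim on both arrays, and a bar for the gene mean. Dashed lines mark 2-fold; the filled points have quartiles of -0.57 and -0.26, and of the 6 genes right of 0, 4 are paralogs or the pseudogene.

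By gene average, 3 of the 5 paralogs past the threshold were lower and 2, Rps27l and Rps4l, were higher. Rps27l is nearly identical to Rps27 and is known as a target of the tumour suppressor p53. Its probe sets read 2362, 1696 and 1384 under the Col1-Dlk1 label against 1817, 1152 and 1139 under the wild-type label. All 3 probe sets of Rps27l were higher, by 0.38, 0.55 and 0.28, while its paralog Rps27 was lower on its own probe set and on the one it shares with Rps27rt. Rps4l, a paralog of Rps4x, read 213 against 102 (0.99), just under 2-fold, while Rps4x was lower. With a pseudocount of 1 Rps4l passed 2-fold, at 1.06.

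Rpl39l and Rpl22l1 read lower. Rpl39l, a paralog of Rpl39 that is best known from male germ cells, read 420 against 790 (-0.89), the largest difference in the lower direction after those of Rps27 and Rps25. Rpl22l1 read 601 against 895 (-0.57). Its partner Rpl22, an RNA-binding protein of the large subunit, gave opposite readings, with 1303 against 1845 (-0.50) on one probe set and 249 against 187 (0.39) on another. Rpl7l1, a nucleolar relative of Rpl7, read 222 against 328 (-0.54) and 275 against 273 (0.01). No direction can be given for Rpl22 and Rpl7l1, since their probe sets disagree.

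Probe sets of 1 gene read the same RNA, so their differences can be set side by side. Of 19 member genes with several probe sets past the threshold, 16 (84.2%) had all of them on the same side of 0, against 71.8% of 2747 genes overall. The exceptions were Rpl22, Rpl7l1 and Rpl37a, with Rpl37a at 8483 against 11988 (-0.50), 5844 against 7189 (-0.30) and 185 against 164 (0.16). Since 90.4% of all member probe sets past the threshold were lower, probe sets of different members would also mostly share a side. The share of 84.2% therefore cannot show how well the difference of a gene repeats. Readings of the same member by different probe sets differed by a median of 0.15 log2 units over 63 pairs, and by 0.89 at most, for Rpl22. This spread covers repeat readings of 1 RNA pool and holds no variation between cultures or animals.

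**Figure D3:**
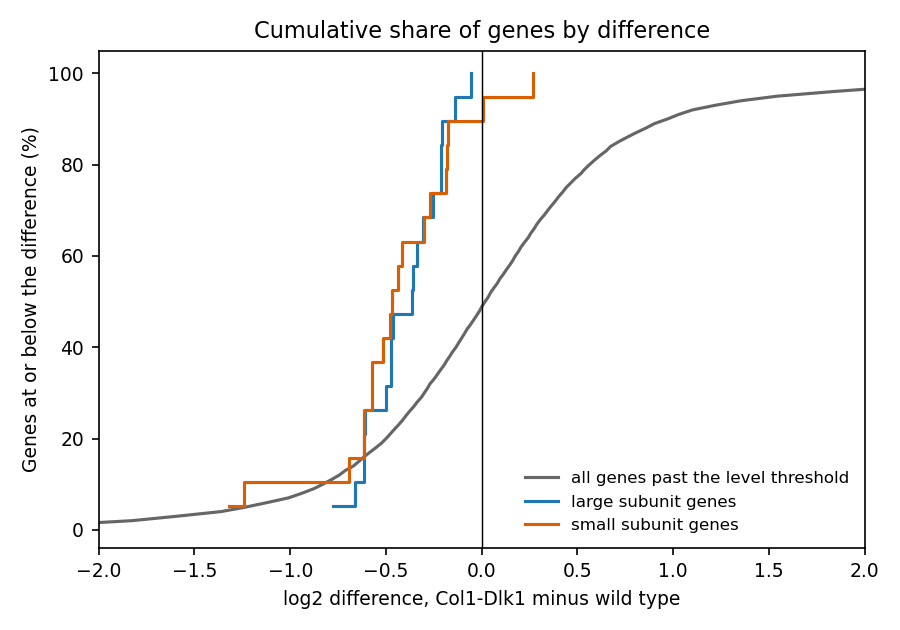
Cumulative share of genes (y axis, %) at or below each log2 difference (x axis, Col1-Dlk1 minus wild type) for the 19 large-subunit and 19 small-subunit genes past the level threshold and for all 6795 genes past it. All large-subunit and 17 small-subunit genes lie left of 0, and the curves of the subunits overlap.

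Many ribosomal protein genes are absent from the 48 because their probe sets also name other genes, such as pseudogenes or predicted copies. There were 102 such probe sets, and 91 of them were not dim. These 91 had a median of -0.45. Of them, 85 read lower under the Col1-Dlk1 label, against 49.7% of single-gene probe sets past the threshold. Only 4 were at least 2-fold lower, where the single-gene share is 8.18%. The 4 were a pair for Rpl14 (1894 against 3959 and 2129 against 5271), 1 for Rpl3 (38.5 against 112) and 1 for Rpl17 (111 against 235). Grouped by the ribosomal gene they name, 26 of 27 genes or gene pairs outside the members had a lower median, from -1.12 for Rpl3 upwards. The remaining one was Rpl24 at 0.10. Its bright probe set was lower, at 5348 against 6390 (-0.26), and the other, near the threshold, read 51.5 against 34.8 (0.45). Of the 12 members that have both kinds of probe set past the threshold, 10 had lower medians on both, and Rps6 and Rpl37a were the other two. Signal from a gene and from its copies cannot be told apart on these probe sets.

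The ribosomal proteins whose symbols do not follow the Rpl and Rps pattern were added from a fixed list. Fau, which encodes Rps30 fused to a ubiquitin-like protein, read 3180 against 4507 (-0.50). Rpsa, the laminin receptor protein of the small subunit, read 4901 against 9902 (-1.01) on the probe set past the threshold, just over 2-fold, but averaged 0.02 with a second, dim probe set. Rack1 had no single-gene probe set and was not analysed here.

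Other genes of translation also tended to read lower on the array labelled Col1-Dlk1, with few calls. For these lists and those below, the shares over all genes past the threshold are 48.8% lower by any size, 7.11% called lower and 9.39% called higher. Elongation factors and associated factors had 7 of 10 genes past the threshold lower, none called and a median of -0.29. Eef1a1, which brings aminoacyl-tRNA to the ribosome, read 9758 against 14315 (-0.55), and Naca, a chaperone at the tunnel exit, read 2535 against 4322 (-0.77). Initiation factors had 26 of 34 lower and a median of -0.29. Eif4g3, a scaffold of the cap-binding complex, was the only one called, at 391 against 181 (1.06), and Eif6, which keeps the subunits apart, read 651 against 1227 (-0.90).

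Genes that build ribosomes lay in the same direction. Of 54 biogenesis factors past the threshold, 41 were lower and none was called higher, with a median of -0.34. Nop56, a core protein of the particles that methylate ribosomal RNA, was called lower at 254 against 559 (-1.11), and its partner Nop58 read 229 against 465 (-0.99). Of 13 genes of the RNA polymerase I machinery, which transcribes ribosomal RNA, 11 were lower, with a median of -0.51, and Polr1c was called lower at 149 against 350 (-1.17). Chaperones and importins of ribosomal proteins had 10 of 15 lower and a median of -0.16, with Nufip1 called lower (-1.14).

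Mitochondrial ribosomal proteins, which form a separate ribosome for the proteins encoded in mitochondrial DNA, had a smaller difference in the values as deposited. Of 73 genes past the threshold, 52 were lower and 21 higher, with a median of -0.24, and only Mrps35 was called, at 79.0 against 188 (-1.14). The share lower was 71.2%, against 91.1% for the cytosolic members. With 1 array per genotype this difference between the lists has no test. The mitochondrial genes were also dimmer, with a median reading of 165 under the Col1-Dlk1 label, against 1733 for the cytosolic members. The median difference of the cytosolic members was -0.27 under quantile normalization and -0.24 under loess. The mitochondrial list was not run under either, so a scaling effect that changes with level cannot be separated from the lists.

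Regulators of ribosome supply were split. Myc, the transcription factor that drives ribosome production, was called lower at 133 against 281 (-1.02), and Larp1 read 381 against 549 (-0.52). Mdm2, which is bound by free ribosomal proteins, was called higher at 911 against 270 (1.71), as was the cell cycle inhibitor Cdkn1a at 2360 against 555 (2.07). Both are known p53 targets, like Rps27l, but a part of p53 in these readings was not tested. Mtor itself read 67.7 against 92.6 (-0.40). The median of the 10 genes past the threshold was -0.27, with 6 lower and 4 higher.

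**Figure D4:**
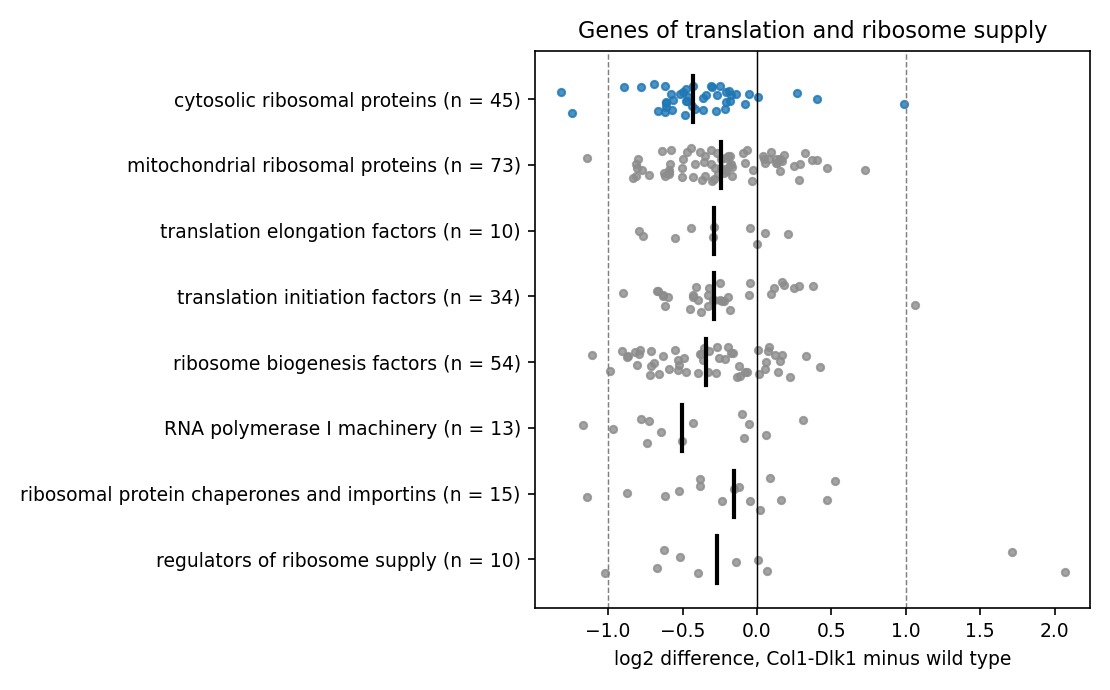
Log2 difference (x axis, Col1-Dlk1 minus wild type) of the genes past the level threshold in 8 lists of translation and ribosome supply (y axis, number of genes in brackets), with 1 point per gene, a bar for each median and dashed lines at 2-fold. Every median lies left of 0, from -0.51 to -0.16, and Mdm2 and Cdkn1a are the points at the far right.

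The members were also split by whether they have a pyrimidine run near an annotated start. The 20 with a run past the level threshold had a median difference of -0.35 and a range from -1.32 to 0.40. The 19 without had a median of -0.46 and a range from -0.89 to -0.05. The difference between these medians was not tested, and the annotated start need not be the one these cells use.

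As a share of the summed intensity of all single-gene probe sets, the 99 members made up 6.81% under the Col1-Dlk1 label and 8.96% under the wild-type label.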

How the data were processed

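RNA of cultured calvarial osteoblasts was measured on 1 array per genotype, each a pool of 3 cultures. The deposited values are linear probe-set intensities, for which the submitters' processing notes name Affymetrix Expression Console, version 1.1.1. The sources used here do not give the algorithm or the scaling target. After trimming 2% at each end, the mean intensity was 150.06 under the Col1-Dlk1 label and 150.07 under the other. Probe sets were joined to GEO's platform annotation by ID, and all 99 member probe sets matched the RefSeq gene table for current symbols. The design text and the annotation name different array types. Probe sets of a gene were averaged on the log2 scale with a pseudocount of 10.96, and printed differences understate those of dim genes.

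Genes named were Dlk1, called members, up to 8 largest differences in each direction among genes past the level threshold whose probe sets past it go the same way, the 6 genes whose probe sets lie farthest apart, stalk genes, fixed paralog pairs and up to 4 called genes per list; other names were chosen after their values were seen. Members and lists were chosen with earlier results of these data known. The calling step was tested on simulated data with changes well past 2-fold in bright genes. That test does not bear on differences as small as those of most members. Alternatives covered scaling, pseudocount, level filter, fold, probe sets and members. Promoter windows are RefSeq's (GRCm38.p6). Scripts ran in Python 3.11.15; pandas 2.3.3 and numpy 2.4.6 handled the tables, statsmodels 0.14.6 the loess, scipy 1.17.1 the trimmed mean, and matplotlib 3.10.9 drew the figures.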

Additional observations from a re-analysis of the deposited data

Results flagged for a closer look

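The 91 ribosomal probe sets past the level threshold that name several genes are not counted among the member probe sets. Of these 91, 6 read higher on the array labelled Col1-Dlk1 than on the control array. They name Rpl24 (0.45), Rps21 (0.45), Rpl37a (0.26), Rpl5 (0.14), Rpl13 (0.078) and Rpl34 (0.076) with other genes, and the values are log2 differences. None reached 2-fold. The probe set of Rpl24 read 51.5 against 34.8, near the threshold, while the bright one of that gene was lower. The probe set of Rps21 read 2230 against 1634, while the other 3 of that gene were lower. Outliers within a group and differences between contrasts cannot be judged from a single array of each genotype.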

How the results depend on the processing

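No paired analysis was possible because only 1 array stands for each genotype, which also leaves no replicate to omit. The median difference of member genes, -0.43 as deposited, moved to -0.27 under quantile normalization and to -0.24 under loess; under the other alternatives run it lay between -0.44 and -0.37. With a pseudocount of 1, 1 gene and 1 probe set were called higher and 4 probe sets lower; at 1.5-fold, 1 gene and 1 probe set were higher and 11 genes and 20 probe sets lower. In all other settings, 2 genes were called lower and none higher. With the threshold at the 25th percentile, 4 member probe sets were dim. Of 249 values of 25 named members, 210 moved by less than 0.15 log2 units, the median spread between probe sets of a member, and 39 by more. Part of the 210 could not move. Changing the level filter leaves the difference of a gene as it is, and a gene with 1 probe set has no other to choose. The count therefore does not measure how stable the values are. Signs changed in 7 values of 4 genes, Rplp2, Rpl22, Rpl7l1 and Rps20, none of them called. The precision is limited by having 1 array per genotype, and 16 member probe sets lie too near the background to be called.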
